A study of Bos taurus with 6 samples.

Results

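The miRNAs of the miR-379 to miR-656 cluster were followed in extracellular vesicles (EVs), membrane-enclosed particles that cells release, from organoids of the bovine oviduct, hollow cultures that its epithelial cells build in a gel. The members were taken by name from the deposited table, which lists all 39 of them among 1028 mature bovine miRNAs. Small RNA was sequenced from 3 EV libraries of thermoneutral organoids kept at 37 °C and 3 of organoids held at 42 °C for the last day of culture as heat stress. Before that day both groups had grown at 37 °C from the scraped oviduct cells of slaughterhouse cows in diestrus, and each replicate, lettered A to C, was a pool of 2 animals. The same oviducts were represented at both temperatures, but no source ties a letter to particular animals, so no pairing was used and a p-value reflects how far such pools differ from each other. Values are miRNA reads scaled to library size and adjusted by the trimmed mean of M-values (CPM), and the reads behind them were recovered from the table.

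The cluster is a long run of miRNA genes in the imprinted DLK1-DIO3 region. In mouse and human it is transcribed from the maternal chromosome only, downstream of the non-coding gene MEG3, and its hairpins are cut from long shared transcripts. It is known chiefly from brain, embryo and placenta, and members are also found in mesenchymal cells, whereas most adult epithelia hold little of it. In the RefSeq table of the bovine assembly ARS-UCD2.0 the members matched 37 miRNA genes on 1 chromosome, with miR-379 at one end and miR-656 at the other. The stretch holds 50 miRNA genes in all, and the order given here is their order in that table, which is of a later assembly than the ARS-UCD1.2 named by the submitters.

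The depth was low for these miRNAs. The libraries held between 31640 and 213877 miRNA reads, of which miR-1246 took between 25.0% and 71.8%. A single read was worth between 5.53 CPM (replicate B at 42 °C) and 28.7 CPM (replicate C at 42 °C). In the latter library a miRNA without a read could therefore stand at up to 86.2 CPM, which is what 3 reads are worth there, a limit for counting error alone. Replicate B at 42 °C stood apart through blood and liver miRNAs, with bta-miR-451 at 159915 CPM and bta-miR-122 at 96614 CPM.

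The cluster took a larger part of the miRNA reads of EVs at 37 °C than at 42 °C. The values are relative to the other miRNAs, and the amount per vesicle was not measured. Summed over all members, the replicates (A, B and C in this order throughout) held 1412, 1087 and 1190 CPM at 37 °C and 167, 653 and 574 CPM at 42 °C. All 3 libraries at 42 °C were below all 3 at 37 °C, and the mean of 465 ± 261 CPM (SD, n = 3) was lower than that of 1229 ± 166 CPM (SD, n = 3) by a ratio of 2.65. As a share of all miRNA reads other than miR-1246, the cluster took 0.350% (95% Wilson interval 0.282 to 0.433%), 0.246% (0.213 to 0.284%) and 0.228% (0.196 to 0.266%) at 37 °C. At 42 °C the share was 0.0338% (95% Wilson interval 0.0221 to 0.0517%), 0.0753% (0.0629 to 0.0902%) and 0.0976% (0.0632 to 0.151%), so the intervals of the temperatures did not meet. These intervals cover counting error only. In EVs, fewer cells that release the cluster, less of it per cell and less of it loaded into vesicles cannot be told apart. No test was made on the sum, since the members were chosen with results of these data known. The log2 ratio of the mean sums was -1.40, and it ranged from -1.73 to -1.002 when each library was left out in turn.

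**Figure D1:**
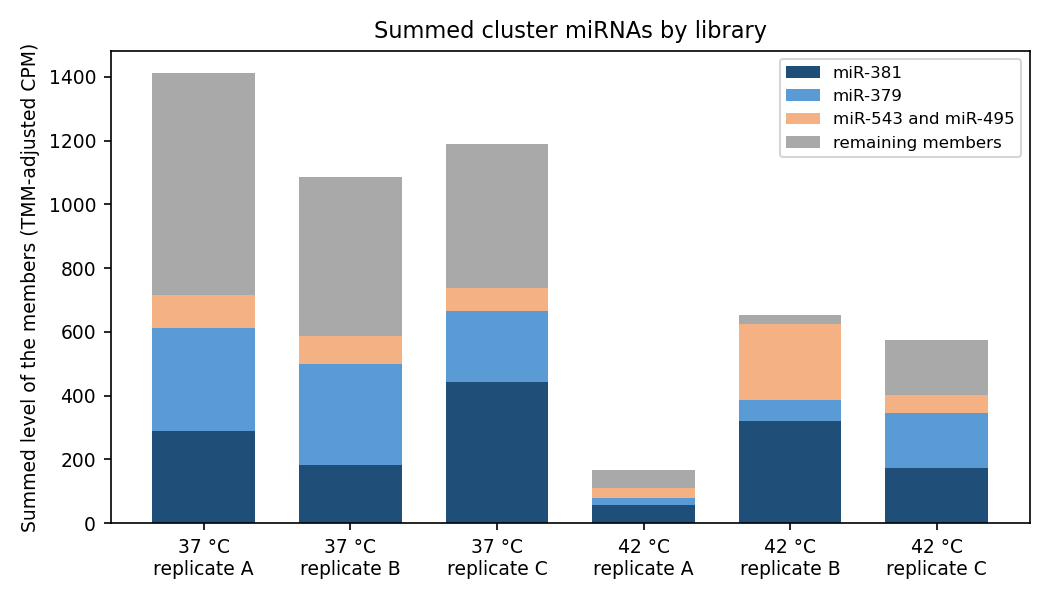
Summed TMM-adjusted CPM of the 39 members in each of the 6 libraries (bars from 0), split into miR-381, miR-379, miR-543 with miR-495, and the remaining members. The 3 bars at 42 °C reach 167, 653 and 574 CPM, all under the lowest bar at 37 °C (1087 CPM), and in replicate B at 42 °C miR-381, miR-543 and miR-495 make up most of the bar.

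Of the 39 members, 19 had a read in at least 1 library and 20 had none. At 37 °C 16 members had a read and at 42 °C 12, of which 9 were shared. The libraries at 37 °C each held 13, 14 and 15 members, out of 215, 256 and 227 miRNAs with a read. Each library at 42 °C held 7, out of 233, 225 and 194. The deepest library, replicate B at 42 °C, showed about as many miRNAs as the others. It held fewer members than the shallowest, replicate A at 37 °C, which had 31640 reads. The part of depth in these counts was not tested. All 3 libraries at 37 °C had reads of 13 members, whereas all 3 at 42 °C had reads of 3, namely bta-miR-379, bta-miR-381 and bta-miR-543.

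The undetected members were spread along the cluster. They were both arms of miR-380 (bta-miR-380-3p and bta-miR-380-5p), bta-miR-1197, bta-miR-329a, bta-miR-329b, bta-miR-1185, bta-miR-487a, bta-miR-154a, bta-miR-154b, bta-miR-496, bta-miR-377, bta-miR-541, bta-miR-412, bta-miR-410, bta-miR-656 and the 5 listed miR-376 genes (bta-miR-376a to bta-miR-376e). The miR-376 genes are close paralogs whose transcripts are known as targets of A-to-I editing in human and mouse, and they surround bta-miR-654, which had 34 reads at 37 °C. How reads were divided among near-identical copies (bta-miR-329a and bta-miR-329b, the miR-376 genes, bta-miR-487a and bta-miR-487b, bta-miR-154a and bta-miR-154b) is not given in the sources used here, so single values within these families are uncertain. A member without a read could still stand at the worth of 3 reads, from 16.6 to 86.2 CPM by library. From bta-miR-485 (place 36 of 50) to the end of the cluster, the reads of all 6 libraries came to 4 for bta-miR-485, 9 for bta-miR-409a, 2 for bta-miR-369-3p and 1 for bta-miR-369-5p. Of 14 further rows of the table that lie in the same stretch and are not members, 1 had a read, bta-miR-323b-3p, with 2 reads in each of replicates A and B at 37 °C and none elsewhere.

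**Figure D2:**
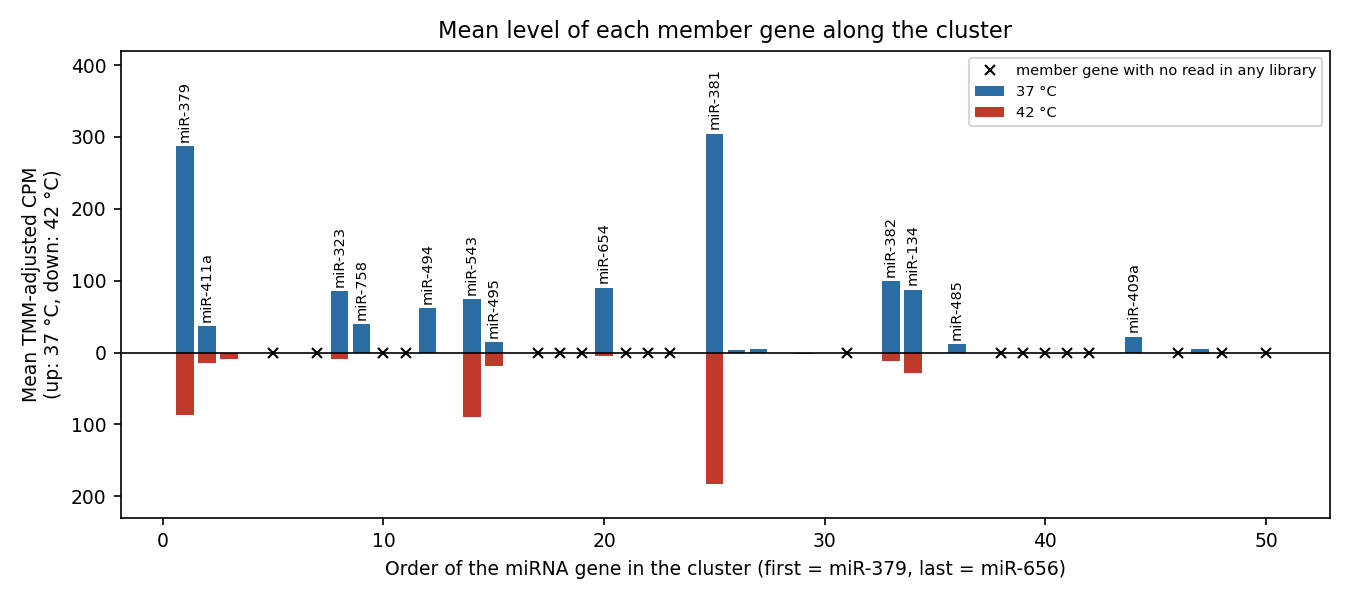
Mean TMM-adjusted CPM of each member gene (both arms summed) by its place among the 50 miRNA genes of the cluster in ARS-UCD2.0, upward for 37 °C and downward for 42 °C (n = 3 each), with crosses for member genes without a read. The level is concentrated in miR-379 and miR-381, and the downward bars exceed 50 CPM only at miR-379, miR-543 and miR-381.

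Temperatures were tested against each other in limma, on log2(CPM + 10), for every miRNA whose mean reached 10 CPM at either temperature. These were 251 miRNAs, 13 of them members. The filter bears on what follows, since 6 of the 13 (bta-miR-323, bta-miR-758, bta-miR-494, bta-miR-654, bta-miR-485 and bta-miR-409a) reached it at 37 °C only, so that they had to be lower at 42 °C, and none reached it at 42 °C only. The 13 therefore do not stand for all members, and their counts are a description. None of the 13 passed at an adjusted p under 0.05 with a change of at least 2-fold (limma, Benjamini-Hochberg over 251 miRNAs), against 6 of the 251, which is 2.39%. That count over all miRNAs was 0 without replicate B at 37 °C or replicate A at 42 °C, 1 without replicate A or replicate C at 37 °C, 4 without replicate B at 42 °C and 3 without replicate C at 42 °C, while no member was called without any of them. On the recovered reads edgeR called 0 of the 13, of 11 miRNAs called in all, and DESeq2 called 0 of the 9 members to which it gave an adjusted p, of 17 called in all. DESeq2 gave none for bta-miR-758, bta-miR-495, bta-miR-485 and bta-miR-409a. The paper, by its own negative binomial model, names bta-miR-654 and bta-miR-323 as differentially expressed and exclusive to EVs of the thermoneutral group. It took a miRNA as expressed from a mean of 10 CPM. At an unadjusted p under 0.05, 7 of the 13 members were lower at 42 °C and 0 higher, where 10.8% of all miRNAs tested were lower at that level. The 3 values at 42 °C lay all below the 3 at 37 °C for 8 of the 13, against 14.3% of all miRNAs tested. Of these members, 6 of the 8 and 5 of the 7 were among those that reached the minimum at 37 °C only, where 40% of all such miRNAs lay wholly below and 31.4% were lower at that unadjusted p. Among the 7 members that reached it at both temperatures, 2 lay wholly below and 2 were lower at that p (bta-miR-379 and bta-miR-382 in both cases), against 11.4% and 8.29% of all such miRNAs, and their median log2 fold change was -0.91. The median log2 fold change of the 13 was -1.79, beside -0.01 for the 251, and all 13 were negative, as were 128 of the 251, though bta-miR-543 and bta-miR-495 were positive in edgeR and DESeq2.

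**Figure D3:**
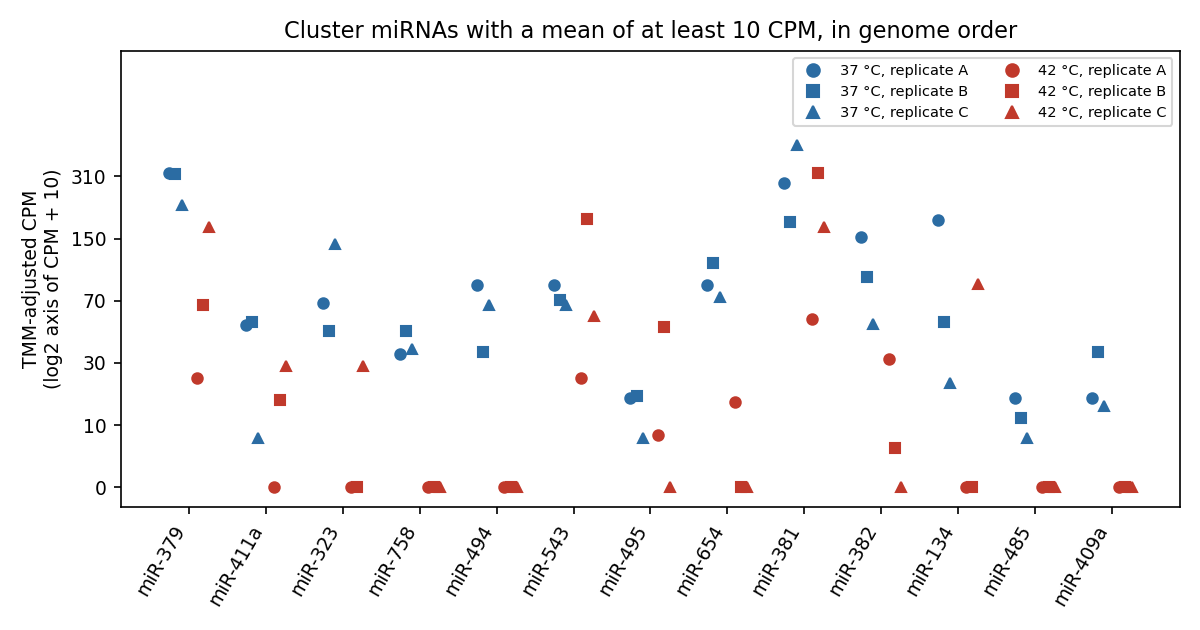
TMM-adjusted CPM of the 13 tested members in each library, in cluster order, on a log2 axis of CPM + 10 (blue 37 °C, red 42 °C, one symbol per replicate letter). For miR-758, miR-494, miR-485 and miR-409a all 3 red points lie at 0, whereas those of miR-543, miR-495 and miR-381 overlap the range of the blue ones.

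The largest levels were those of bta-miR-381 and bta-miR-379, at ranks 88 and 91 of all miRNAs by mean CPM at 37 °C. bta-miR-379, the first gene of the cluster, whose product represses the ER-associated degradation factor EDEM3 in mouse kidney, stood at 323, 317 and 222 CPM at 37 °C. At 42 °C it stood at 23.8, 66.4 and 172 CPM, the last of these from 6 reads. The groups did not overlap, and its rank by mean CPM was 129 at 42 °C. The log2 fold change of -1.91 (standard error, SE, 0.70, limma adjusted p = 0.17) missed the threshold. The ratio of the means, 37 °C to 42 °C, was 3.28, and in pooled reads, 103 against 21, which weight deep libraries more, it was 4.60 (exact 95% interval 2.85 to 7.74, counting error only).

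bta-miR-381 stood at 289, 182 and 443 CPM at 37 °C and at 55.6, 321 and 172 CPM at 42 °C. Its groups overlapped, since replicate B at 42 °C exceeded 2 of the libraries at 37 °C, and the log2 fold change was -0.91 (SE 0.67, limma adjusted p = 0.56). The balance of the 2 leading members thus varied from library to library. There were 0.895, 0.574 and 2 reads of bta-miR-381 for each read of bta-miR-379 at 37 °C, and 2.33, 4.83 and 1 at 42 °C, so the groups overlapped in this ratio too.

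bta-miR-543 and bta-miR-495, neighbours in the cluster, were the members with the smallest differences. bta-miR-543 stood at 85.0, 70.5 and 66.5 CPM at 37 °C and at 23.8, 188 and 57.4 CPM at 42 °C, with 34 of its 39 reads at 42 °C in replicate B. bta-miR-495 stood at 17.0, 17.6 and 7.39 CPM at 37 °C and at 7.95, 49.8 and 0 CPM at 42 °C, with 9 of 10 reads in replicate B. In both, replicate B was the highest of all 6 libraries while the other libraries at 42 °C were below or among those at 37 °C. Their log2 fold changes were -0.12 (95% interval -1.84 to 1.59, adjusted p = 0.96, limma) and -0.09 (95% interval -1.87 to 1.69, adjusted p = 0.96, limma), so these data leave room for a change of more than 2-fold either way. On recovered reads both signs turned, to 0.29 and 0.64 in edgeR.

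Together bta-miR-381, bta-miR-543 and bta-miR-495, a trio picked after the values were seen, made up 27.7%, 24.9% and 43.5% of the cluster's reads at 37 °C and 52.4%, 85.6% and 40% at 42 °C. Their sum was 391, 270 and 517 CPM at 37 °C and 87.4, 559 and 230 CPM at 42 °C, with overlap. The remaining members summed to 1020, 817 and 672 CPM at 37 °C and to 79.5, 94.1 and 345 CPM at 42 °C, without overlap. Replicate B at 42 °C, the library of high bta-miR-451 and bta-miR-122, was above every library at 37 °C for the trio and far below them for the rest. Without this library the log2 ratio of the summed level of all members was -1.73 and the median log2 fold change of the 13 was -1.64.

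The members with reads in every library at 37 °C and none at 42 °C were bta-miR-494, bta-miR-758, bta-miR-409a and bta-miR-485. bta-miR-494 stood at 85.0, 35.2 and 66.5 CPM at 37 °C, from 5, 6 and 9 reads. It had no read at 42 °C, where its level at 37 °C would have given 18.7 reads in all. With 3 reads allowed in each library at once, the mean at 42 °C could be 42.2 CPM, and the mean at 37 °C was 1.48 times that. This limit is wide and takes the mean at 37 °C without its counting error. It is not the exact interval given for the pooled reads of other members and is not comparable with it. The limma log2 fold change of bta-miR-494 was -2.79 (SE 0.73, adjusted p = 0.056), a value that, for a miRNA without reads in a group, depends on the pseudocount.

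bta-miR-758, which represses the cholesterol exporter ABCA1 in human cells, stood at 34.0, 47.0 and 36.9 CPM at 37 °C, a narrow spread from 2, 8 and 5 reads. It had no read at 42 °C, where that level would have given 14.1 reads, but its mean of 39.3 CPM was under the same limit, so no fold is given from the counts (limma log2 fold change -2.29 with an SE of 0.69, adjusted p = 0.097). bta-miR-409a stood at 17.0, 35.2 and 14.8 CPM at 37 °C, also under that limit, with 8.43 reads to be had at 42 °C (adjusted p = 0.22, limma). Its gene shares its place with that of bta-miR-409b, which had no read. bta-miR-485, which represses the synaptic vesicle protein SV2A in rat neurons, stood at 17.0, 11.7 and 7.39 CPM at 37 °C, from 1, 2 and 1 reads. With 3.75 reads to be had at 42 °C, no difference was detectable at this depth (adjusted p = 0.42, limma).

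Next to them stood members with a handful of reads at 42 °C. bta-miR-654 was at 85.0, 112 and 73.9 CPM at 37 °C and at 15.9, 0 and 0 CPM at 42 °C, with 34 reads against 2. Its groups did not overlap, though without a read replicate C at 42 °C could still stand at up to 86.2 CPM. The member reached the filter's minimum at 37 °C only. Its log2 fold change of -2.85 (SE 0.78, limma adjusted p = 0.057) was the second lowest of the 251 miRNAs. The ratio of 37 °C to 42 °C was 17.0 between the means and 15.9 in pooled reads (exact 95% interval 4.08 to 137, counting error only).

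bta-miR-323, whose gene lies beside that of bta-miR-758, was at 68.0, 47.0 and 140 CPM at 37 °C and at 0, 0 and 28.7 CPM at 42 °C, the latter a single read. Its groups did not overlap either (limma log2 fold change -2.48 with an SE of 0.85, adjusted p = 0.14). The ratio of the means was 8.89. In pooled reads, 31 against 1, it was 29.0 (exact 95% interval 4.84 to 1184, counting error only), because the single read fell in the library where a read is worth most.

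The neighbouring genes of bta-miR-382 and bta-miR-134 gave a less even picture. bta-miR-382 was at 153, 94.0 and 51.7 CPM at 37 °C and at 31.8, 5.53 and 0 CPM at 42 °C. Each library at 42 °C was lower (limma log2 fold change -2.44 with an SE of 0.84, adjusted p = 0.14), and 32 reads against 5 gave a pooled ratio of 6.0 (exact 95% interval 2.32 to 19.7, counting error only) beside a ratio of means of 8.004. Its gene overlaps that of bta-miR-3578, which had no read.

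bta-miR-134, which limits dendritic spine growth in rat neurons through the kinase gene Limk1, was at 187, 52.9 and 22.2 CPM at 37 °C and at 0, 0 and 86.2 CPM at 42 °C. The groups overlapped, because the 3 reads of replicate C at 42 °C are worth more than the 9 reads of replicate B at 37 °C (limma log2 fold change -1.79 with an SE of 1.04, adjusted p = 0.42). bta-miR-411a overlapped as well, with 51.0, 52.9 and 7.39 CPM at 37 °C and 0, 16.6 and 28.7 CPM at 42 °C (limma log2 fold change -0.90 with an SE of 0.86, adjusted p = 0.64). Among its paralogs, bta-miR-411b and both arms of miR-411c had no read.

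The last 6 detected members had at most 2 reads each. At 37 °C, bta-miR-369-3p, which in human cells acts on the TNF transcript, and bta-miR-539 had 2 reads each in replicate C, and bta-miR-487b had 2 in replicate B. At 42 °C, bta-miR-299 had 1 read in replicate C, bta-miR-655 had 1 in replicate A and bta-miR-369-5p had 1 in replicate B. Each of them was in 1 library only, and no difference between temperatures was detectable for them at this depth. The order of the members by level at 37 °C was likewise loose below the 2 leaders. bta-miR-382 (99.6 ± 50.9 CPM), bta-miR-654 (90.2 ± 19.4), bta-miR-134 (87.4 ± 87.7), bta-miR-323 (85.1 ± 49.0), bta-miR-543 (74.0 ± 9.76) and bta-miR-494 (62.3 ± 25.2; SD, n = 3 each) each differed from the next in that order by less than the larger of their SDs, as did bta-miR-381 (305 ± 131) and bta-miR-379 (287 ± 57.0).

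**Figure D4:**
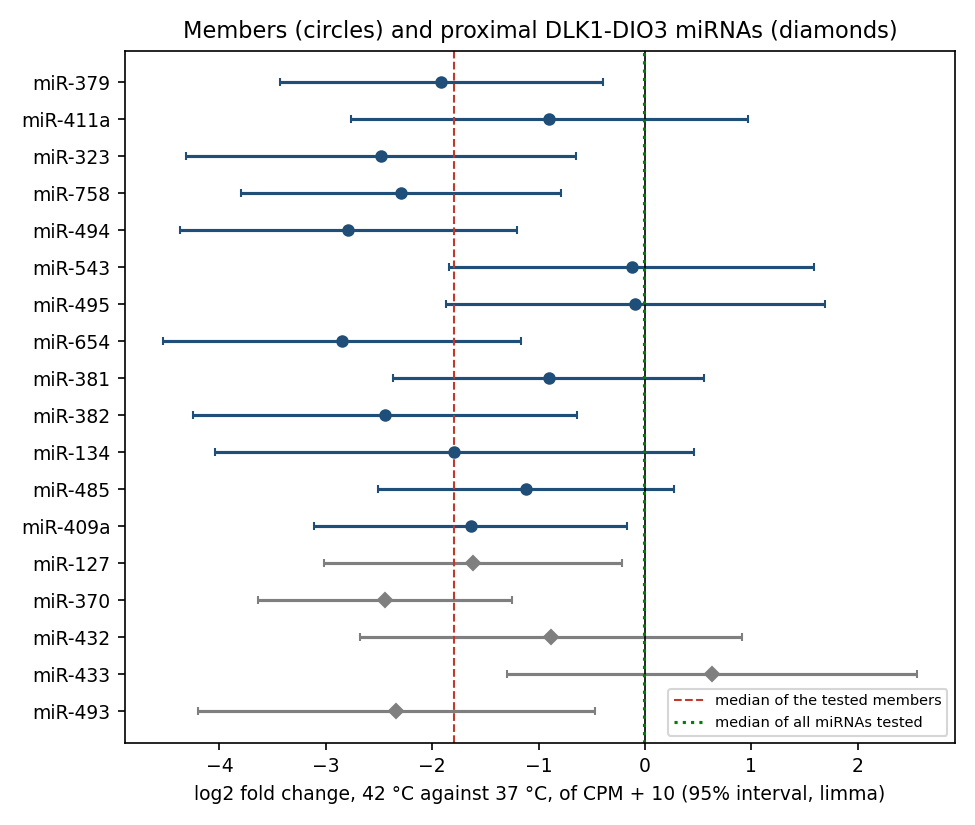
log2 fold change of CPM + 10 at 42 °C against 37 °C with its 95% interval (limma) for the 13 tested members in cluster order and for 5 miRNAs of the neighbouring proximal group. The circles run from -2.85 to -0.09 around a median of -1.79, beside -0.01 for all 251 miRNAs tested, and the intervals of 7 members lie wholly under 0. Of the 13 members, 6 reached the filter's minimum at 37 °C only and so had to be lower at 42 °C.

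The direction was also read on other scales, because miR-1246 weighed differently in each library. With every library summing to 1000000, the median of all 251 miRNAs moved from -0.01 to -0.54, calls were 4 higher and 16 lower rather than 4 and 2, and 5 members were called lower (bta-miR-379, bta-miR-323, bta-miR-494, bta-miR-654 and bta-miR-382; limma), where 6.37% of all miRNAs were. Without miR-1246 in that sum the median of all was -0.46, with 4 higher and 10 lower, and bta-miR-494 and bta-miR-654 were called, where 3.98% of all miRNAs were called lower. Relative to the median of all miRNAs, the 13 members stood at -1.78 as deposited, -1.88 on the first of these scales and -2.03 on the second. The filter bears on this, since the 6 members that reached its minimum at 37 °C only had a median of -2.39 as deposited. Those that reached it at both temperatures had a median of -0.91. Over all miRNAs the medians of these sets were -1.12 and 0.04. Without the intensity trend in limma, bta-miR-494, bta-miR-654 and bta-miR-758 were called, where 1.99% of all were called lower. Of the members called here, bta-miR-323, bta-miR-494, bta-miR-654 and bta-miR-758 reached the filter's minimum at 37 °C only. Their means as deposited therefore had to be lower at 42 °C, so these calls are a description. The size of the median also rested on the 4 members without a read at 42 °C. With bta-miR-494 at the limit of 3 reads per library, and the other 3, whose means at 37 °C were under it, set to no change, the median log2 ratio of the means over the 13 was -0.74. No change is a cautious setting here and not a measured value. This ratio has no pseudocount, so it is not on the scale of the limma fold changes. Over the 19 members tested without a filter the median log2 fold change in limma was -0.91.

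**Figure D5:**
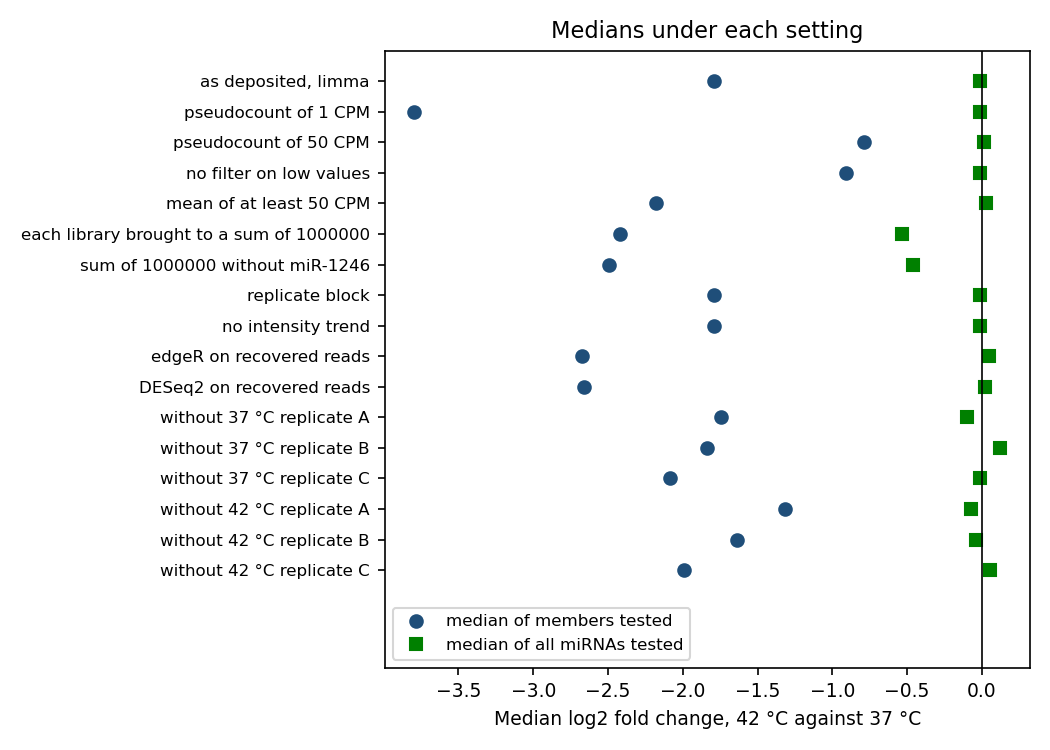
Median log2 fold change at 42 °C against 37 °C of the tested members (circles) and of all miRNAs tested (squares) as deposited and under 16 alternative settings. The circles lie between -3.80 and -0.79 and the squares between -0.54 and 0.12, and the circle is left of the square in each row. Of the 13 members tested as deposited, 6 reached the filter's minimum at 37 °C only and so had to be lower at 42 °C.

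The neighbouring proximal miRNAs of the DLK1-DIO3 region were set beside the cluster. Of 11 listed, 8 are in the table, 6 had a read and 5 were tested, of which 1 fell, bta-miR-370 (limma log2 fold change -2.45 with an SE of 0.55, adjusted p = 0.029), where 0.797% of all miRNAs were called lower. That call was lost in 8 of 16 alternatives (adjusted p from 0.063 to 0.24, limma). The losses were with a pseudocount of 1 CPM, without the intensity trend and without each of the 6 libraries in turn. It was kept in the other 8, among them edgeR and DESeq2. The paper, by its own model, also lists bta-miR-370 as lower at 42 °C. The median over the 5 was -1.61 on the log2 scale, 4 of them negative, beside the -1.79 of the cluster members. Their summed level was higher than that of the cluster in every library, from 3243 to 4405 CPM at 37 °C and from 254 to 1752 CPM at 42 °C, and again the ranges did not overlap. A difference between both groups of miRNAs was not tested.

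Markers of the cell types that could carry the cluster were read from the same libraries. Of 7 miRNAs of stroma, all had a read, 6 were tested and 0 passed (limma), with 0 at an unadjusted p under 0.05. Their sum ranged from 2696 to 7347 CPM at 37 °C and from 4094 to 13210 CPM at 42 °C. It was mostly bta-miR-143, with a mean of 3086 of 4358 CPM at 37 °C and 6628 of 7751 CPM at 42 °C, so it says little of the other 6. The median log2 fold change of this list was 1.07, with 1 of the 6 negative, bta-miR-199a-3p (-0.90), which stood at 1378, 834 and 931 CPM at 37 °C and 334, 559 and 862 CPM at 42 °C. The endothelial list had a median of -0.31 with both tested miRNAs negative, and the list of multiciliated cells a median of -0.37 with all 3 negative, and none of these passed (limma, with 0 at an unadjusted p under 0.05). Among neuronal miRNAs, bta-miR-124a had 5 reads in replicate A at 42 °C and none elsewhere, bta-miR-9-3p and bta-miR-219 had none, and the sum of the 6 in the table, mostly bta-miR-128 and bta-miR-9-5p, ranged from 3601 to 4728 CPM at 37 °C and from 7209 to 14991 CPM at 42 °C. Of 3 neuronal miRNAs tested none passed, and 1, bta-miR-9-5p, was higher at 42 °C at an unadjusted p under 0.05 (limma). Over all 251 miRNAs tested, 17 were higher at that p. Of 6 epithelial miRNAs in the table none passed (limma, with 0 at an unadjusted p under 0.05), at 12347 to 19774 CPM and 12670 to 26238 CPM. The leukocyte list, in which bta-miR-150 rose (limma adjusted p = 4.87e-05, higher in each library at 42 °C, but 0.075 without replicate B at 37 °C and 0.074 without replicate A at 42 °C), ranged from 2364 to 2712 CPM at 37 °C and from 6256 to 14216 CPM at 42 °C. Of 6 leukocyte miRNAs tested, 3 were higher at an unadjusted p under 0.05 (limma), beside the 17 of all 251. The list of skeletal and heart muscle ranged from 1259 to 1818 CPM at 37 °C and from 1853.5 to 5198 CPM at 42 °C. Of its 3 tested miRNAs none passed, and 1 was higher at that p (limma), again beside 17 of all 251. The part of any of these cell types in the levels of the cluster was not tested.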

How the data were processed

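Small RNA of EVs was sequenced in 6 libraries, 3 per temperature. After trimming, the authors quantified reads with the miRNA tool of CLC Genomics Workbench, using miRBase, and deposited a signal per miRNA, CPM adjusted by TMM, whose columns therefore do not sum to 1000000. The submitters' processing notes also name bcl2fastq, Bowtie2 2.2.2, DESeq2 and ARS-UCD1.2, without roles. Dividing a library's values by its smallest one above 0 gave whole numbers in 100% of cases (tolerance 0.01), and these (31640 to 213877 per library) were taken as reads.

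Groups were compared across all miRNAs by limma 3.58.1 (R 4.3.3). The fit was on log2(CPM + 10), allowed a trend with intensity and had no block, and two-sided p-values were adjusted over 251 miRNAs. The pseudocount understates the fold change of low miRNAs. The thresholds on CPM, fold and adjusted p follow the study's methods, whose negative binomial model needs counts. edgeR 4.0.16 and DESeq2 1.42.0 on the recovered reads were alternatives, beside the pseudocount, the filter, the scaling, the replicate block, the trend and each library left out. The tests were tested on simulated data. Ratios of pooled reads have exact conditional intervals. Every member with a read was named, those with a mean of at least 10 CPM by library. Members and lists were chosen with earlier results of these data known. Mature sequences were not used here.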

Additional observations from a re-analysis of the deposited data

How the results depend on the processing

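All 13 tested members had a negative log2 fold change as deposited, and 11 kept it in every alternative in which they were tested. The exceptions were bta-miR-543 (0.29 in edgeR, 0.29 in DESeq2, and from -0.81 to 0.47 with single libraries left out, the highest without replicate A at 42 °C) and bta-miR-495 (0.051 with a pseudocount of 50 CPM, 0.64 in edgeR, 0.59 in DESeq2, and from -0.81 to 0.48 with single libraries left out, the highest without replicate C at 42 °C). Members called were 0 in 13 of 16 alternatives, 5 with sums of 1000000, 2 without miR-1246 in the sum and 3 without the intensity trend. Of the 13 tested, 6 reached the filter's minimum at 37 °C only, so that they had to be lower at 42 °C as deposited. miRNAs called in all, 6 as deposited, were 10 with a minimum of 50 CPM, 20 and 14 on these 2 scales, 10 without the trend, 11 in edgeR, 17 in DESeq2 and from 0 to 4 with single libraries left out. The members' median log2 fold change of -1.79 was -3.80 with a pseudocount of 1 CPM and -0.79 with 50, -0.91 over 19 members without a filter, -2.18 with a minimum of 50 CPM, -2.42 and -2.50 on these scales, -2.67 in edgeR, -2.66 in DESeq2 and from -2.08 to -1.31 with single libraries left out. The log2 ratio of summed levels was -2.28 with sums of 1000000. The cause of these shifts was not tested, other than that a larger pseudocount shrinks the change of low miRNAs.

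With the replicate letter as a block (replicate block), 15 miRNAs and 0 members were called. Deviations from the group means correlated at -0.06, 0.03 and -0.06 for letters A, B and C, and no library correlated best with its own letter. With 3 libraries per temperature and many miRNAs of few reads, this cannot show whether a letter stands for the same animals. Most members rest on few reads, which limits what could be detected.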
